A study of Marmota monax with 203 samples.

Results

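Fatty acid oxidation and ketogenesis in the liver were described here through 33 genes, chosen by symbol for their known place in the pathway, among 17587 genes in the tables. The genes were measured in liver biopsies of adult Eastern woodchucks (Marmota monax) about 1 year old, all chronic carriers of woodchuck hepatitis virus after neonatal infection. One group of animals received placebo and the other woodchuck interferon-α (wIFN-α) under the skin 3 times a week, at 20 µg when the biopsies of weeks 0 and 3 were taken and at 100 µg at weeks 7, 11 and 15. Biopsies of week -3 preceded treatment, and those of weeks 19 and 23 followed its end. The paper states that biopsies of weeks 0 to 15 were taken hours after a dose of wIFN-α or placebo.

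The comparisons used 149 of 164 biopsies, with 12 placebo and 11 wIFN-α animals at weeks -3 and 0, 12 and 9 at weeks 3 and 7, 10 and 8 at week 11, 9 and 8 at week 15, 5 and 6 at week 19, and 9 and 6 at week 23. Animal M1004 of the wIFN-α group, set aside by the study as well, was left out with its 7 biopsies, as were 8 biopsies taken at other weeks or at death. Animals were lost during the study, so groups at later weeks hold the survivors. Every animal carried the virus, so no comparison was made with uninfected liver. Reads on woodchuck genes ranged from 12072840 to 84805845 per biopsy, with a median of 28754894. Bulk values do not tell fewer hepatocytes apart from less RNA per hepatocyte.

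Fatty acids enter hepatocytes with the help of CD36, are bound by FABP1 and are activated to acyl-CoA by ACSL enzymes. The carnitine shuttle, gated by CPT1A, moves long-chain acyl groups into mitochondria, where dehydrogenases, hydratases and thiolases shorten them, while peroxisomes handle branched-chain, very long-chain and dicarboxylic acids. The acetyl-CoA produced feeds ketone body synthesis, and in fasting the nuclear receptor PPARα raises many of these genes together with the hormone FGF21, the lipase inhibitor ANGPTL4 and the kinase PDK4.

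Of the biopsies compared, 5 stood apart, with over 5% of their reads on 20 genes of skeletal muscle. In the other 144 this share had a median of 0.0474% and did not exceed 2.98%. In the week -3 biopsies of placebo animal F1016 and wIFN-α animal F1018 the share was 14.4% and 14.5%, and the hepatocyte marker ALB stood at 114 and 32.1 CPM (counts scaled to the same library size), against at least 13220 CPM in the other 144 biopsies. These 2 libraries went against their liver label. The other 3 were placebo F1021 and M1011 at week 3 (12.4% and 5.46%) and wIFN-α F1023 at week 0 (8.13%), and ALB was at 8568 to 30080 CPM in them. Results are given with all biopsies, and without these 5 where that changed a call. No defining hepatocyte marker was at 0 in any biopsy.

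Members differed widely in level. Per length, in RPKM (reads per kilobase and library size), over the 81 placebo biopsies, ACSL1, the acyl-CoA synthetase, had the highest median level at 2213 RPKM and the coactivator PPARGC1A the lowest at 2.16 RPKM. ACAA2, the mitochondrial 3-ketoacyl-CoA thiolase, had a median level of 554 RPKM and EHHADH, the peroxisomal bifunctional enzyme, one of 395 RPKM. CPT1A spanned 5.96 to 139 RPKM and FGF21 0.0521 to 153 RPKM, whereas ETFA, a subunit of the electron transfer flavoprotein, stayed between 106 and 249 RPKM.

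The first question was whether wIFN-α changed these genes at each biopsy week. A gene was called when edgeR's quasi-likelihood test gave a Benjamini-Hochberg adjusted p under 0.05 over all genes tested and the fold change exceeded 1.5. At week 0, after the first dose, 3 members were called lower (9.09%, against 8.15% of all genes tested) and 1 higher (3.03%, against 10.3%). At week 3 none was called in either direction (3.54% of all genes were called lower and 7.24% higher). At week 7, 3 were called lower (9.09%, against 10.1%) and 1 higher (3.03%, against 11.4%). At weeks 11 and 15, 4 each were called lower (12.1%, against 7.98% and 8.83%) and none higher (against 12.6% and 13.4%).

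By the adjusted p alone, without the fold limit, 6, 2, 13, 6 and 10 members passed at weeks 0, 3, 7, 11 and 15, that is 18.2%, 6.06%, 39.4%, 18.2% and 30.3% of them. With the animal as a block and the effect taken minus that at week -3, 3, 1, 4, 4 and 6 members passed, and at week 7 these were PPARA, ACOX2, EHHADH and BDH1. All genes passed, in the fits by week, at 34.6%, 19.4%, 46.6%, 37.3% and 41.5%. At each of these 5 weeks a smaller share of the members than of all genes passed in the fits by week. The share of all genes in the blocked fit is not given here, so its counts are not set against one. That fit held all weeks together and kept F1016 and F1018 at week -3. The median log2 fold change of the members was 0.06, -0.02, -0.12, -0.16 and -0.21 at the same weeks, beside -0.01, -0.04, -0.03, -0.03 and -0.01 over all genes tested. The count of 0 at week 3 went with 5 members at an unadjusted p under 0.05, and DESeq2 and limma-voom called 0 there too.

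**Figure D1:**
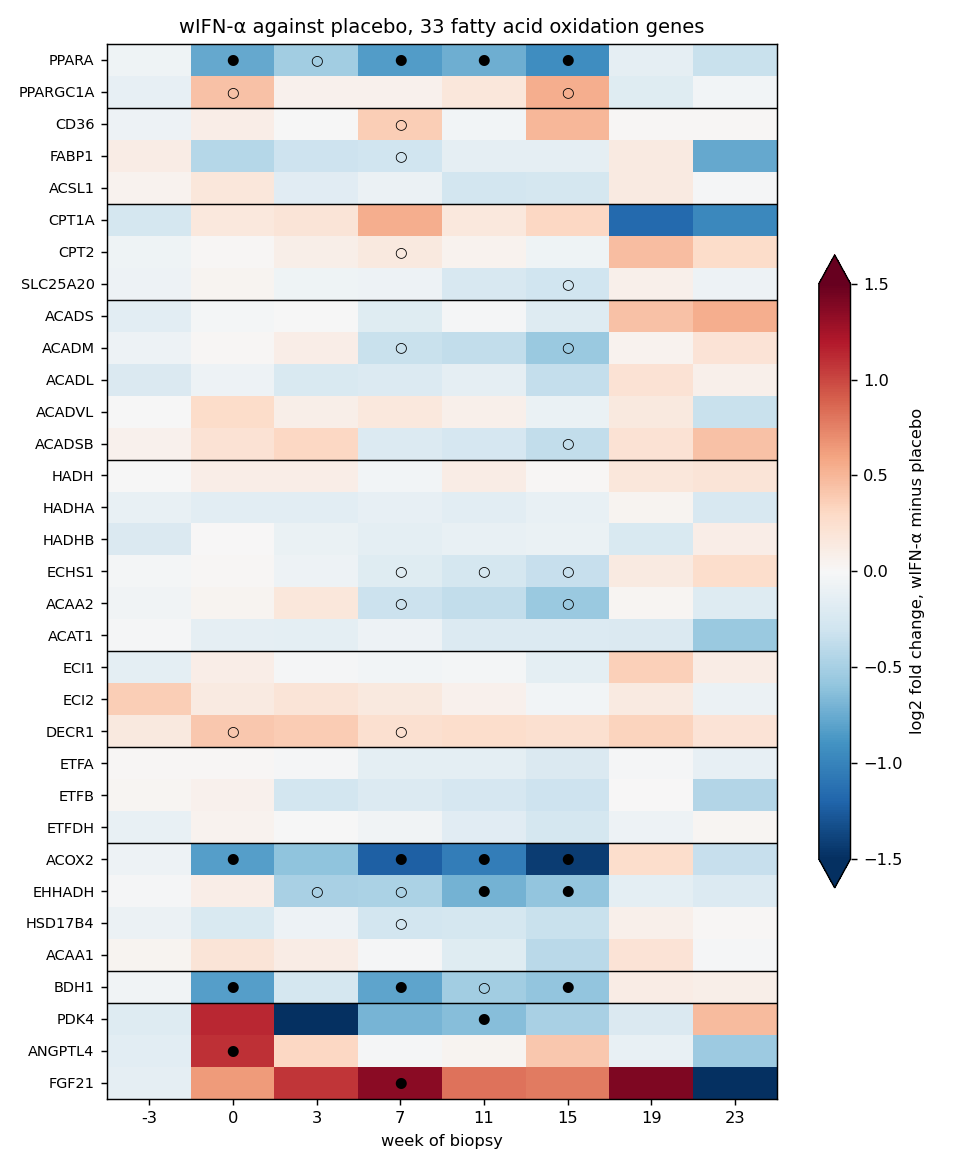
Log2 fold change of wIFN-α against placebo for the 33 members (rows, ordered by role, lines between roles) at each biopsy week (columns). Filled circles mark calls and open circles an adjusted p under 0.05 with a smaller fold. Most calls lie in PPARA, ACOX2, EHHADH and BDH1 at weeks 0, 7, 11 and 15, those of EHHADH at weeks 11 and 15 only. None stands at weeks -3, 3, 19 or 23.

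Of the transcriptional regulators, PPARA, the receptor that drives hepatic fatty acid oxidation genes, was lower in wIFN-α livers at 4 of the 5 treatment weeks. Before treatment it ranged from 98.2 to 331 CPM in placebo (median 240) and from 64.8 to 324 CPM in wIFN-α animals (median 204), and without the muscle-rich biopsies from 161 to 331 and from 141 to 324 CPM. At week 0 the placebo biopsies ran from 95.4 to 226 CPM (median 124) and the wIFN-α biopsies from 47.6 to 126 CPM (median 73.9). At week 15 they ran from 120 to 194 CPM (median 137) and from 54.8 to 92.2 CPM (median 75.3). The groups did not overlap at weeks 11 and 15, and at week 0, 9 of 11 wIFN-α biopsies lay below every placebo biopsy.

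The log2 fold change of PPARA was -0.77 ± 0.16 (SE) at week 0 (edgeR adjusted p = 0.000387), -0.84 ± 0.14 at week 7 (adjusted p = 4.5e-05), -0.73 ± 0.10 at week 11 (adjusted p = 1.58e-05) and -0.93 ± 0.10 at week 15 (adjusted p = 1.39e-06). At week 3 it was -0.52 ± 0.14 (adjusted p = 0.0124), below the fold limit. In that week wIFN-α animal F1013 had the highest value, 145 CPM, and its summed level of 10 interferon-stimulated genes was 754 CPM, inside the placebo range of 286 to 874 CPM. The other wIFN-α biopsies of weeks 0 to 15 had at least 6581 CPM on that list. Without F1013 the week 3 difference was -0.64 (adjusted p = 0.000594) and PPARA was called. With the lane number as a covariate PPARA did not pass at week 3.

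PPARGC1A, a coactivator of PPARα, moved the other way by less. Its week 0 values were 13.1 to 28.3 CPM in placebo (median 20) and 18.5 to 45.9 CPM in wIFN-α animals (median 23.3), and the groups overlapped. The log2 difference was 0.44 ± 0.16 (edgeR adjusted p = 0.0316) at week 0 and 0.54 ± 0.20 (adjusted p = 0.0402) at week 15, both under the fold limit, and between 0.06 and 0.17 with no pass at weeks 3, 7 and 11.

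Among the 4 peroxisomal members, ACOX2, the branched-chain acyl-CoA oxidase that also acts on bile acid intermediates, had the largest differences. At week 7 it ranged from 340 to 606 CPM in placebo (median 476) and from 112 to 280 CPM in wIFN-α animals (median 225), and all 9 wIFN-α biopsies lay below every placebo biopsy. At week 15 the ranges were 286 to 599 CPM (median 446) and 83.9 to 289 CPM (median 170), with 7 of 8 below every placebo biopsy. The log2 fold change was -0.83 ± 0.29 at week 0 (edgeR adjusted p = 0.0293), -0.61 ± 0.31 at week 3 (adjusted p = 0.177), -1.23 ± 0.16 at week 7 (adjusted p = 8.89e-07), -1.04 ± 0.17 at week 11 (adjusted p = 8.43e-05) and -1.43 ± 0.23 at week 15 (adjusted p = 8.98e-05).

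ACOX2 was low in the biopsies with the most muscle reads, at 5.94 and 9.19 CPM in F1016 and F1018 at week -3. Without the muscle-rich biopsies the week 3 difference was -0.79 (edgeR adjusted p = 0.0378), a call. The week 0 call was lost with M1004 included (adjusted p = 0.0723), with the lane number as a covariate (adjusted p = 0.0871) and with the animal as a block (adjusted p = 0.146). It was also lost without wIFN-α animal M1003 (adjusted p = 0.053) or M1007 (adjusted p = 0.0519). The block took the effect minus that at week -3, where F1016 and F1018 were kept, and was not run without them. The calls at weeks 7, 11 and 15 were kept under each of those alternatives that was run there.

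EHHADH was lower from week 3 to week 15, though at week 3 it did not pass with the lane number as a covariate. At week 11 it ranged from 1621 to 2966 CPM in placebo (median 2124) and from 994 to 1748 CPM in wIFN-α animals (median 1342), with 6 of 8 below every placebo biopsy. The log2 fold change was 0.09 ± 0.19 at week 0 (edgeR adjusted p = 0.736), -0.48 ± 0.14 at weeks 3 and 7 (adjusted p = 0.0172 and 0.00866), -0.71 ± 0.15 at week 11 (adjusted p = 0.000996) and -0.59 ± 0.16 at week 15 (adjusted p = 0.00573). The call at week 11 was lost with M1004 included (-0.55) and with the animal as a block (-0.58), and that at week 15 in 8 of 19 alternatives (-0.58 to -0.48), in each of which the adjusted p stayed under 0.05 and the fold fell under the limit. HSD17B4, the other peroxisomal bifunctional enzyme, fell by 0.28 ± 0.10 on the log2 scale at week 7 (adjusted p = 0.0344), and ACAA1, the peroxisomal thiolase, passed at no week.

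BDH1, which interconverts the ketone bodies acetoacetate and 3-hydroxybutyrate, was called lower at weeks 0, 7 and 15. At week 7 the placebo biopsies held 131 to 182 CPM (median 155) and the wIFN-α biopsies 69 to 109 CPM (median 92), with no overlap. At week 0 they held 93.1 to 248 CPM (median 146) and 62.4 to 121 CPM (median 87.5), and 7 of 11 wIFN-α biopsies lay below every placebo biopsy. The log2 fold change was -0.82 ± 0.14 at week 0 (edgeR adjusted p = 7.26e-05), -0.27 ± 0.19 at week 3 (adjusted p = 0.328), -0.79 ± 0.07 at week 7 (adjusted p = 4.42e-09), -0.52 ± 0.11 at week 11 (adjusted p = 0.00118) and -0.59 ± 0.11 at week 15 (adjusted p = 0.000468). The week 11 value passed the test and was under the fold limit, as was that of week 15 with M1004 included (-0.56) and without F1020 (-0.52).

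**Figure D2:**
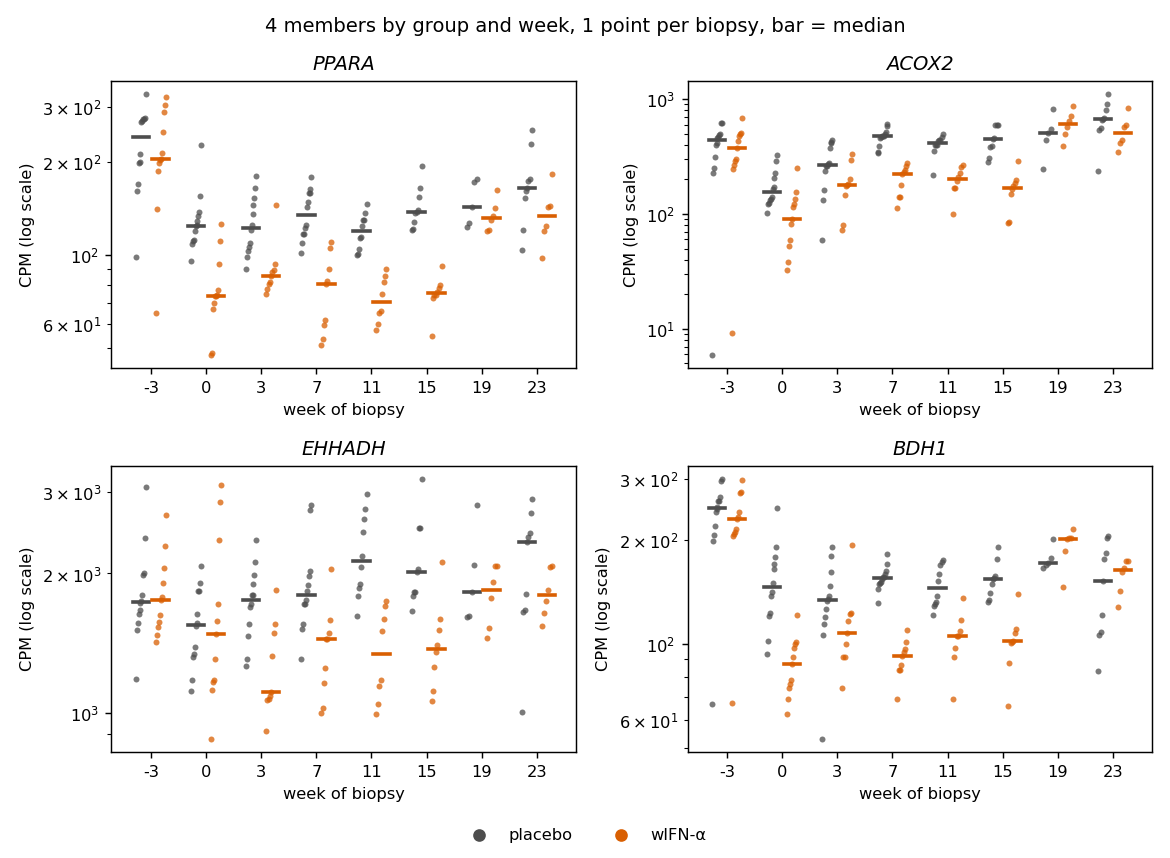
CPM (log axis) of PPARA, ACOX2, EHHADH and BDH1 in each biopsy (points) by week, with the group median (bar), placebo in grey and wIFN-α in orange. During weeks 0 to 15 the wIFN-α medians lie below the placebo medians in each panel (week 15 medians of 75.3 against 137 CPM for PPARA). The groups are free of overlap only for PPARA at weeks 11 and 15 and for ACOX2 and BDH1 at week 7. At weeks 19 and 23 they overlap in each panel.

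The 3 fasting-response genes did not move together. ANGPTL4, an inhibitor of lipoprotein lipase, was higher at week 0, from 147 to 331 CPM in wIFN-α animals (median 205) against 62.9 to 150 CPM in placebo (median 88.7). Of 11 wIFN-α biopsies, 10 lay above every placebo biopsy, and the log2 fold change was 1.10 ± 0.16 (edgeR adjusted p = 7.56e-06). At the later treatment weeks the difference lay between -0.02 and 0.40 and did not pass. Whether the effect at week 0 differed from that at week 3 was tested directly and did not pass (log2 difference of effects -0.79 ± 0.29, adjusted p = 0.226).

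PDK4, which limits glucose oxidation by inhibiting pyruvate dehydrogenase, was called lower at week 11 alone. Its values there were 117 to 528 CPM in placebo (median 254) and 94.3 to 255 CPM in wIFN-α animals (median 195), and the log2 fold change was -0.64 ± 0.24 (edgeR adjusted p = 0.0459). The call was lost with the lane number as a covariate (adjusted p = 0.138) and with the animal as a block (adjusted p = 0.471). It was also lost when any of 6 of the 8 wIFN-α animals was left out (F1013, F1014, F1020, M1002, M1003 or M1012, adjusted p = 0.0539 to 0.0827). PDK4 moved with muscle: it reached 820 to 4136 CPM in the 5 muscle-rich biopsies, against 15.2 to 771 CPM in the other 144. Its week 3 difference was -1.49 ± 0.70 with all biopsies and 0.07 ± 0.39 without the muscle-rich ones, with no pass in either.

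FGF21, the hormone of the fasting liver, was called higher at week 7, with 1.37 to 36.8 CPM in wIFN-α animals (median 4.89) and 0.956 to 7.77 CPM in placebo (median 2.53). The log2 fold change was 1.35 ± 0.50 (edgeR adjusted p = 0.0319). M1007 held 36.8 CPM and the next highest wIFN-α biopsy 7.36 CPM, and without M1007 the log2 difference was 0.49 (adjusted p = 0.323). The call was also lost with limma-voom (adjusted p = 0.151), with sex as a covariate (0.0526), with all weeks in 1 fit (0.0905) and with the animal as a block (0.113). M1007 also had the highest CPT1A of its group, 638 CPM at week 3 and 416 CPM at week 7.

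**Figure D3:**
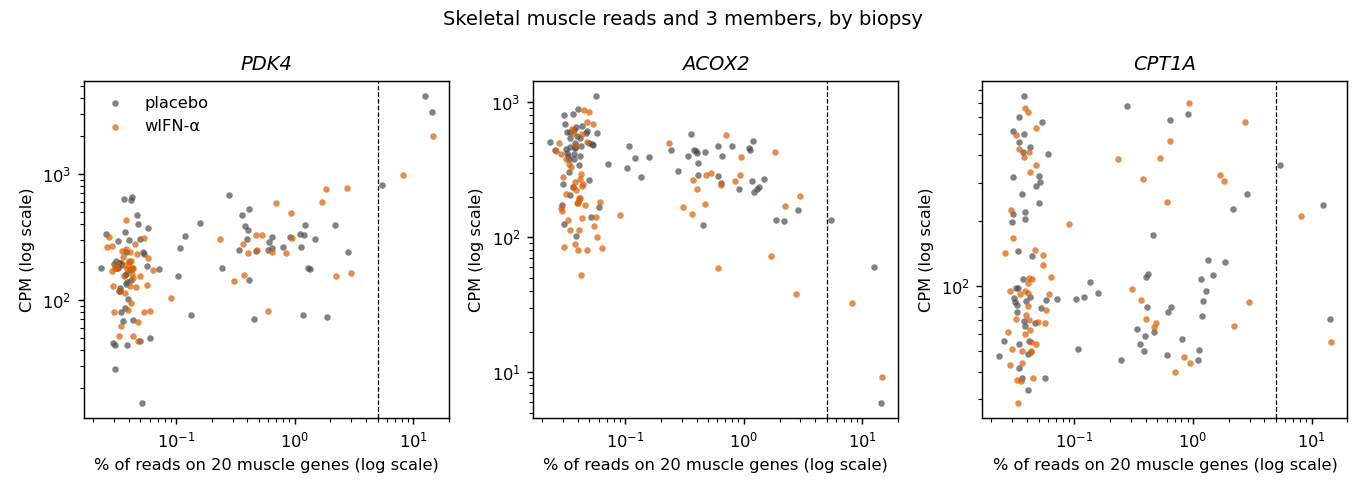
CPM (log axis) of PDK4, ACOX2 and CPT1A against the percent of reads on 20 skeletal muscle genes (log axis) in the biopsies compared, with the dashed line at 5%. Right of the line PDK4 lies at 820 to 4136 CPM, and the 2 biopsies with the highest share have ACOX2 at 5.94 and 9.19 CPM.

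Uptake and the carnitine shuttle had no call at any treatment week. CD36, a fatty acid translocase, passed the adjusted p at week 7 (log2 0.37 ± 0.13, edgeR adjusted p = 0.0224), with 1659 to 2760 CPM in wIFN-α and 1166 to 2181 CPM in placebo biopsies. FABP1, the liver fatty acid binding protein, passed in the other direction in the same week (-0.30 ± 0.12, adjusted p = 0.0498). CPT1A, the gate of mitochondrial entry, had log2 differences of 0.15 to 0.54 over weeks 0 to 15 and passed at none. At weeks 3 and 7 its wIFN-α medians were the lower ones (104 and 55.3 CPM, against 122 and 68.8 CPM in placebo). In those weeks M1007 held the highest wIFN-α values, 638 and 416 CPM. At weeks 0, 11 and 15 the wIFN-α medians were the higher ones. CPT2, the inner-membrane transferase, passed at week 7 (0.14 ± 0.05, adjusted p = 0.0316), and SLC25A20, the carnitine-acylcarnitine carrier, fell by 0.30 ± 0.10 at week 15 (adjusted p = 0.0231).

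Of the 5 mitochondrial acyl-CoA dehydrogenases none was called in the main fits by week. ACADM, the medium-chain enzyme, ran from 86.8 to 214 CPM in wIFN-α animals at week 15 (median 191) and from 208 to 362 CPM in placebo (median 245), with 6 of 8 below every placebo biopsy. Its log2 fold change was -0.33 ± 0.13 at week 7 (edgeR adjusted p = 0.0414) and -0.55 ± 0.16 at week 15 (adjusted p = 0.0119), both under the fold limit. At week 15 it was called lower in 6 of 19 alternatives, with a log2 fold change down to -0.72. ACADSB, which acts on branched short chains, fell by 0.37 ± 0.11 at week 15 (adjusted p = 0.0119).

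Of the later mitochondrial steps, ACAA2 and ECHS1 passed. ACAA2 had log2 differences of -0.33 ± 0.13 at week 7 and -0.56 ± 0.21 at week 15 (edgeR adjusted p = 0.0394 and 0.0371). ECHS1, the short-chain enoyl-CoA hydratase, fell by 0.19 ± 0.06, 0.27 ± 0.09 and 0.35 ± 0.10 at weeks 7, 11 and 15 (adjusted p = 0.01, 0.0227 and 0.0112). HADHA and HADHB, the subunits of the trifunctional protein, passed at no week, with log2 values between -0.16 and 0.01, nor did ACAT1, the mitochondrial acetoacetyl-CoA thiolase (-0.21 to -0.07), or HADH, the short-chain hydroxyacyl-CoA dehydrogenase (-0.05 to 0.11). DECR1, an auxiliary enzyme for unsaturated fatty acids, passed upward at weeks 0 and 7 (0.40 ± 0.13 and 0.24 ± 0.09, adjusted p = 0.0191 and 0.034). The 3 electron transfer flavoprotein genes, ETFA, ETFB and ETFDH, passed at no week.

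Leukocyte markers had the most calls at weeks 11 and 15. Of 12 leukocyte genes, 3, 3, 2, 8 and 9 were called higher at weeks 0, 3, 7, 11 and 15 (against 10.3%, 7.24%, 11.4%, 12.6% and 13.4% of all genes). Their summed level at week 15 was 372 to 687 CPM in wIFN-α and 220 to 305 CPM in placebo biopsies. Of 12 hepatocyte genes none was called lower at those weeks (against 3.54% to 10.1% of all genes). Their summed level at week 15 was 72850 to 141200 CPM in wIFN-α and 74250 to 111600 CPM in placebo biopsies. Of 8 stellate and endothelial genes 3 were called lower at week 15 (against 8.83% of all genes), with summed levels of 250 to 555 CPM in wIFN-α and 270 to 4782 CPM in placebo biopsies. The part of leukocyte, stellate and endothelial RNA in the differences above was not tested. Within each of 7 lane numbers, and averaged over weeks 0 to 15, the log2 difference of ACOX2 was -1.51 to -0.60 and that of BDH1 -0.68 to -0.29. That of PPARA was -0.99 to -0.18 and that of EHHADH -0.96 to -0.07, below 0 in all 7 for each gene. Some different biopsies shared both lane number and barcode, so a lane number can cover more than 1 sequencing lane. A biopsy with several runs was given the lane number of its deepest run. The lane number therefore does not hold a batch fixed.

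Before and after treatment no member was called, and 0% of all genes tested were called at weeks -3, 19 and 23. At an unadjusted p under 0.05 there were 0, 2 and 4 members, and DESeq2 and limma-voom called 0 at each of these weeks. PPARA was at 123 to 176 CPM in placebo (median 143) and 119 to 162 CPM in wIFN-α animals (median 132) at week 19. ACOX2 was at 248 to 819 CPM (median 512) and 392 to 874 CPM (median 608), and BDH1 at 165 to 201 CPM (median 171) and 146 to 215 CPM (median 201). All 3 genes overlapped between the groups. The log2 differences at week 19 were -0.14 ± 0.12, 0.26 ± 0.27 and 0.12 ± 0.11.

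The second question was whether the effect at 100 µg differed from that at 20 µg. The difference between the effect at week 15 and the mean effect at weeks 0 and 3 passed for 0 of 33 members (2.69% of all genes passed), with 8 members at an unadjusted p under 0.05 and 0 by limma-voom. Animals were biopsied repeatedly, and with the animal as a replicate block 8 members passed, 24.2% of them against 13.3% of all genes, each with a lower value at week 15. They were ACADM (log2 difference of effects -0.73 ± 0.18, edgeR adjusted p = 0.00574), ACADSB (-0.91 ± 0.24, adjusted p = 0.0107), ACAA2 (-0.79 ± 0.20, adjusted p = 0.00832), ACOX2 (-1.05 ± 0.34, adjusted p = 0.0362), ACAA1 (-0.73 ± 0.21, adjusted p = 0.0207), EHHADH (-0.31 ± 0.10, adjusted p = 0.0298), ECHS1 and ETFDH. PPARA and BDH1 were not among them.

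Without the muscle-rich biopsies, 6 of those 8 passed in the blocked comparison, all but ECHS1 and ETFDH (18.2% of members against 12.6% of all genes). The change from week 0 to week 3 within the low dose passed for 0 members (0.383% of all genes), with 5 at an unadjusted p under 0.05 and 0 by limma-voom. With the animal as a block EHHADH passed (-0.34 ± 0.08, edgeR adjusted p = 0.0475, 3.03% of members against 1.09% of all genes). Without the muscle-rich biopsies no member passed in the blocked comparison (0.182% of all genes). Dose and time on treatment cannot be told apart in this design, since every animal received the low dose first.

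The third question was how these genes behaved over time without interferon. In placebo animals the biopsies of weeks 0 to 15 also followed a dose by hours, and those of weeks -3, 19 and 23 did not. Time and placebo dosing therefore cannot be told apart between these sets. In placebo livers 28 of 33 members varied over the 8 weeks by an F test across weeks (84.8%, against 68% of all genes). The 5 that did not pass were CPT2, ACAA2, ECI2, DECR1 and ETFA. With the animal as a block, which takes the repeated biopsies into account, 93.9% of the members passed and only ECI2 and ETFA did not. The share of all genes under that block is not given here, and the 68% was without it. The smallest adjusted p values were those of HADHB (1.5e-15), CPT1A (2.8e-13), FGF21 (8.7e-13) and CD36 (7.4e-12).

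Most members had lower values at week 0 than at week -3, in a comparison added after the values were seen. Of 33 members, 9 were called lower (27.3%, against 2.2% of all genes tested) and 1 higher (3.03%, against 2.54%), and by the adjusted p alone 16 passed (48.5%, against 10.2%). The median log2 difference was -0.43 over the members and -0.04 over all genes. PPARA was lower at week 0 in 12 of 12 animals and fell by 0.78 ± 0.16 (edgeR adjusted p = 0.0032). HADHB, the β subunit of the trifunctional protein, was lower in 12 of 12 and fell by 0.90 ± 0.15 (adjusted p = 0.00045). Called lower as well were HADHA, ACAT1, ACOX2, ACAA1, BDH1, PDK4 and ANGPTL4. The ACOX2 call was lost with the animal as a block (adjusted p = 0.125), with limma-voom (0.48) and with no filter (0.0512), and those of ACAT1 and BDH1 with limma-voom (0.066 and 0.0959). Over the same step the summed level of 12 hepatocyte genes went from a placebo median of 162200 to 117100 CPM, and then lay at 93480 to 103400 CPM at weeks 7 to 15, while that of 7 adipocyte genes went from 337 to 501 CPM. Of the hepatocyte genes 1 was called higher and none lower at week 0 (against 2.54% and 2.2% of all genes). At weeks 7 to 15, 2 were called higher and 2 lower (against 4.92% and 9.03%). The part of these changes in the members' values was not tested.

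CD36 alone was called higher, by 1.00 ± 0.18 (edgeR adjusted p = 0.001), from 517 to 2059 CPM at week -3 (median 1346, and at least 1042 CPM without F1016) to 1687 to 4254 CPM at week 0 (median 2698), and it rose in 12 of 12 placebo animals. CPT1A was lower in 10 of 12 placebo animals. It passed with the animal as a block (-1.05 ± 0.30, adjusted p = 0.03) and without the muscle-rich biopsies (-1.10, adjusted p = 0.006). In the animals later given wIFN-α, whose week 0 biopsy followed the first dose, PPARA was lower at week 0 in 10 of 11, HADHB in 10 of 11 and CD36 in 0 of 11.

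**Figure D4:**
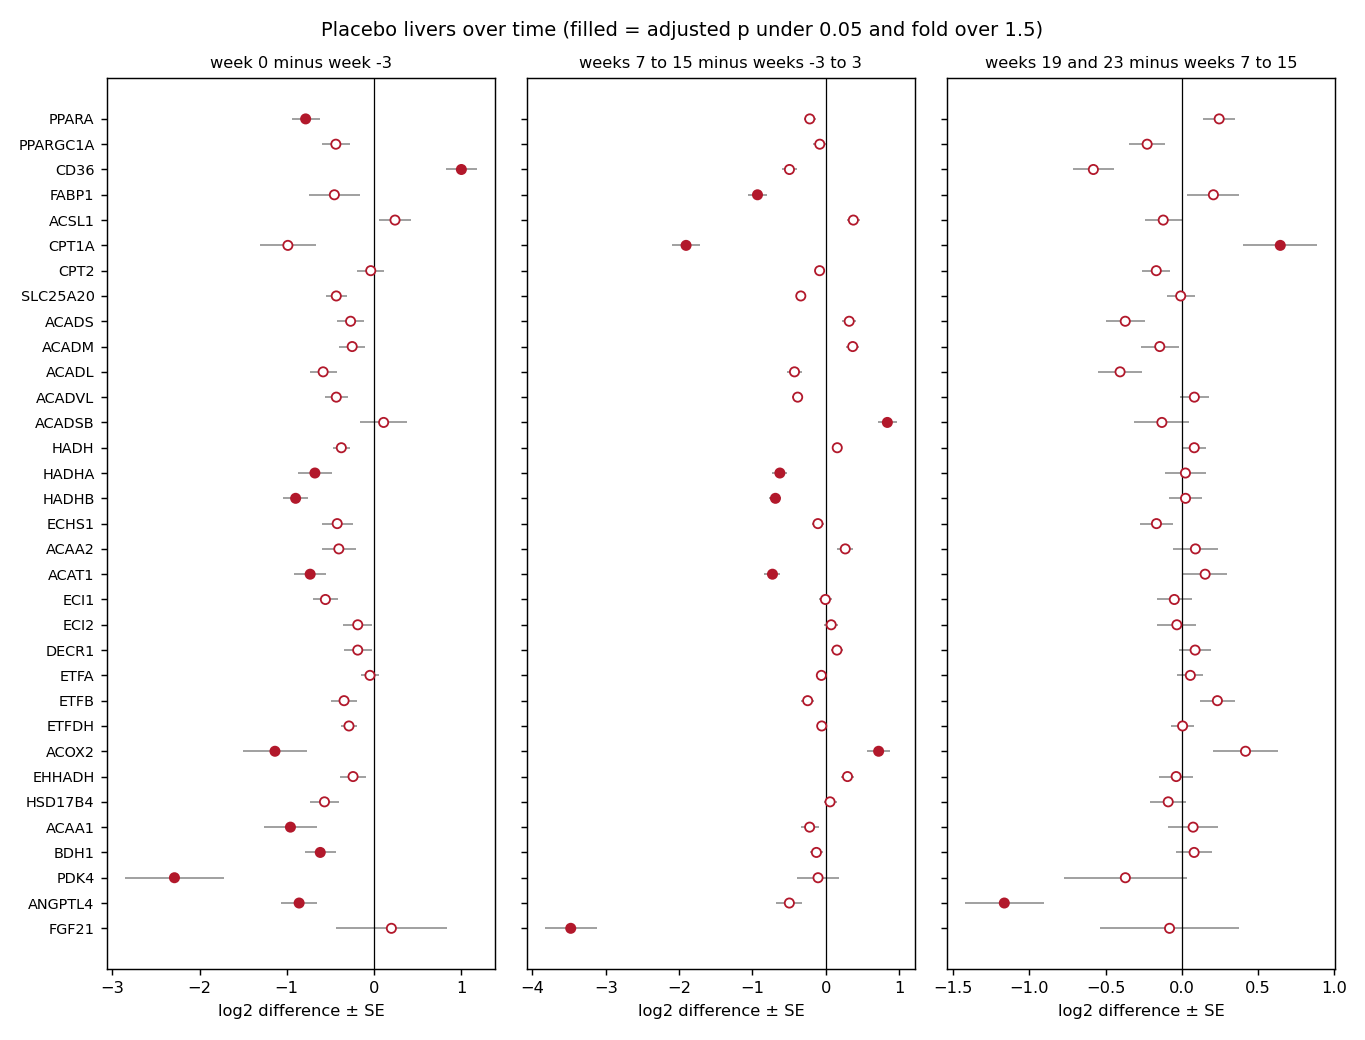
Log2 difference ± SE (bars) of the 33 members between periods in placebo livers, filled where called. In the left panel all but 4 members lie left of 0, in the middle panel FGF21 (-3.48) and CPT1A (-1.91) lie farthest left, and in the right panel ANGPTL4 (-1.17) does.

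Later in the study 6 members were called lower at weeks 7 to 15 than at weeks -3 to 3 (18.2%, against 9.03% of all genes) and 2 higher (6.06%, against 4.92%), and by the adjusted p alone 21 passed (63.6%, against 48.6%). FGF21 went from medians of 17.5, 20 and 12.7 CPM at weeks -3, 0 and 3 to 2.53, 1.79 and 1.18 CPM at weeks 7, 11 and 15. It was lower in 12 of 12 animals, and fell by 3.48 ± 0.35 on the log2 scale (edgeR adjusted p = 6.9e-13). CPT1A went from medians of 536, 209 and 122 CPM to 68.8, 66 and 81.8 CPM, was lower in 12 of 12 animals and fell by 1.91 ± 0.19 (adjusted p = 8e-13).

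FABP1 went from medians of 1215, 748 and 861 CPM to 529, 494 and 424 CPM and fell by 0.93 ± 0.13 (edgeR adjusted p = 1.3e-08). ACAT1 fell by 0.73 ± 0.11, HADHB by 0.69 ± 0.08 and HADHA by 0.63 ± 0.10 (adjusted p = 8.2e-08, 1.3e-10 and 5.4e-07). With week -3 left out, FGF21 (-3.32), CPT1A (-1.47) and FABP1 (-0.75) were still called, CD36 joined them at -0.75, and HADHB (-0.35), HADHA (-0.36) and ACAT1 (-0.45) passed under the fold limit.

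The 2 members called higher were ACADSB, from medians of 674, 666 and 700 CPM to 1202, 1107 and 1347 CPM (log2 0.84 ± 0.13, edgeR adjusted p = 3.1e-07), and ACOX2, from 438, 154 and 267 CPM to 476, 416 and 446 CPM (0.72 ± 0.16, adjusted p = 0.00016). Both were higher in 12 of 12 animals. ACADM, at 0.37 ± 0.09 (adjusted p = 0.00054), was also higher in 12 of 12. ACADL, the long-chain dehydrogenase, fell by 0.43 ± 0.11 (adjusted p = 0.00064) and ACADVL, the very long-chain one, by 0.38 ± 0.07 (adjusted p = 7.3e-06), and ACADS, the short-chain one, rose by 0.32 ± 0.09 (adjusted p = 0.00314). With week -3 left out ACADL no longer passed (-0.21, adjusted p = 0.139), and the other 4 dehydrogenases did.

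**Figure D5:**
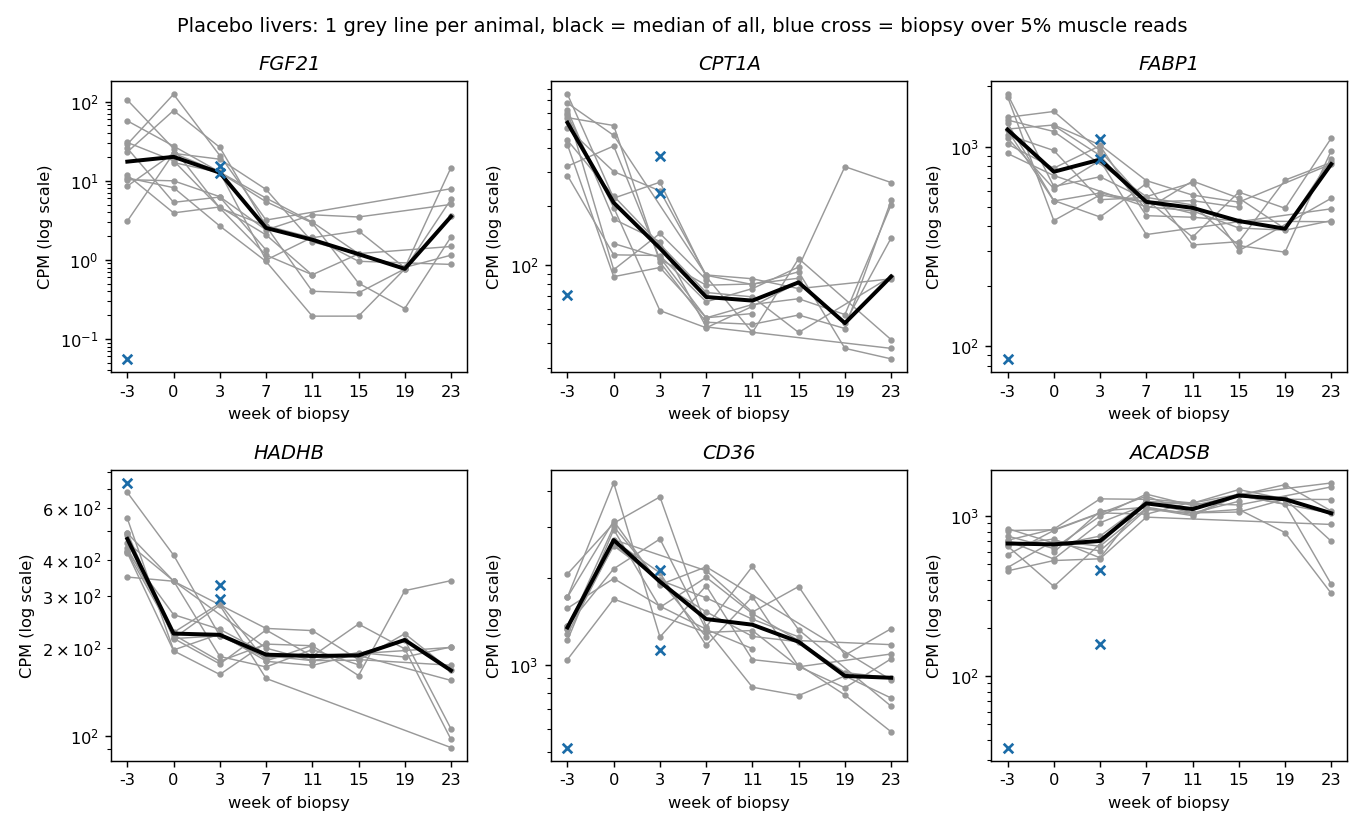
CPM (log axis) of 6 members in placebo livers by week, with 1 grey line per animal, the median of all biopsies in black and the muscle-rich biopsies as blue crosses. The FGF21 median drops from 12.7 CPM at week 3 to 2.53 CPM at week 7, that of CPT1A goes down stepwise from 536 CPM at week -3 to 68.8 CPM at week 7, CD36 peaks at week 0 with a median of 2698 CPM, and ACADSB rises.

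At weeks 19 and 23 against weeks 7 to 15, 1 member was called lower (3.03%, against 4.34% of all genes) and 1 higher (3.03%, against 6.51%), and 5 passed by the adjusted p alone (15.2%, against 33.6%). ANGPTL4 fell by 1.17 ± 0.26 (edgeR adjusted p = 0.00031), from medians of 124, 84.3 and 96.2 CPM to 38 and 52.3 CPM, and was lower in 8 of 9 animals. CPT1A was called higher (0.65 ± 0.24, adjusted p = 0.032). CD36 passed under the fold limit (-0.58 ± 0.14, adjusted p = 0.000577), was lower in 9 of 9 animals and was called in 9 of 18 alternatives (-0.62 to -0.59). Of the CPT1A values, placebo animal M1008 held 320 CPM at week 19, where the other 4 held 37.6 to 56 CPM, and 265 CPM at week 23. Without M1008 the log2 difference was 0.02 (adjusted p = 0.969), with the animal as a block it was 0.56 (adjusted p = 0.0869), and without F1019 it was 0.62 (adjusted p = 0.0724).

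The rest of the pathway was taken from a list of 82 further genes, of which 81 were in the tables and 79 were tested at week 15. At week 15, 16 were called lower (20.3%, against 8.83% of all genes) and 4 higher (5.06%, against 13.4%), with a median log2 fold change of -0.30. At week 0, 6 were called lower (7.59%, against 8.15%) and 3 higher (3.8%, against 10.3%), with a median of -0.04. Peroxisomal genes had 4 calls lower and 1 higher of 14 tested at week 15, other mitochondrial oxidation genes 3 lower of 16, regulators 5 lower of 15, other PPARα targets 3 lower and 1 higher of 12, uptake and activation genes 1 lower and 1 higher of 15, and ketone body genes 1 higher of 7.

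RXRA, the partner receptor of PPARα, held 144 to 213 CPM in placebo (median 184) and 51 to 130 CPM in wIFN-α animals (median 109) at week 15, with no overlap. Its log2 fold change was -1.03 ± 0.12 at week 0 and -0.81 ± 0.15 at week 15 (edgeR adjusted p = 1.59e-07 and 0.000378). PPARGC1B, a coactivator related to PPARGC1A, was at -0.60 ± 0.33 at week 0 (adjusted p = 0.166) and -1.40 ± 0.17 at week 15 (adjusted p = 2.72e-06). PPARG, a related receptor, was at -0.94 ± 0.29 and -0.87 ± 0.25 (adjusted p = 0.014 and 0.0106).

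DECR2, the peroxisomal dienoyl-CoA reductase, was at -0.79 ± 0.19 and -1.18 ± 0.16 at weeks 0 and 15 (edgeR adjusted p = 0.002 and 8.99e-06), and all 8 wIFN-α biopsies of week 15 lay below every placebo biopsy. ACOT8, a peroxisomal thioesterase, was at -0.86 ± 0.17 at week 15 (adjusted p = 0.000593), and CROT, the peroxisomal carnitine octanoyltransferase, at 1.26 ± 0.39 (adjusted p = 0.0143). Of mitochondrial genes ACOT2, a thioesterase, was at -1.04 ± 0.23, ACAD11, an acyl-CoA dehydrogenase, at -0.79 ± 0.26 and GCDH, glutaryl-CoA dehydrogenase, at -0.60 ± 0.11 at week 15 (adjusted p = 0.00172, 0.0216 and 0.000299).

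BDH2 was higher at week 15 (0.97 ± 0.15, edgeR adjusted p = 4.87e-05), the opposite of BDH1. FABP5, an epidermal-type fatty acid binding protein, was lower (-1.83 ± 0.42, adjusted p = 0.00185) and ACSL4, which prefers arachidonate, higher (1.02 ± 0.31, adjusted p = 0.0144). PLIN2, a lipid droplet coat protein, was called higher at week 0 (1.17 ± 0.36, adjusted p = 0.0137) and TXNIP, a thioredoxin-binding protein, at weeks 0 and 15 (1.16 ± 0.25 and 0.98 ± 0.18, adjusted p = 0.000829 and 0.000279). CIDEC, another lipid droplet protein, was lower at week 15 (-1.49 ± 0.53, adjusted p = 0.0316).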

How the data were processed

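Poly(A) RNA of 164 liver biopsies was sequenced as paired 50-nucleotide reads in 203 runs. The authors mapped reads to their woodchuck transcriptome with Bowtie2 and counted them with SAMtools. The processing notes also name CASAVA, FastQC and DESeq. The deposited tables hold expected counts, of which 118 of 3368022 nonzero values were not whole, and the authors' RPKM values, from which gene lengths were recovered to give RPKM of the summed runs. Counts were rounded, runs of a biopsy were summed (runs disagreed most for M1008 at week 15, F1022 at week 19 and M1002 at week -3, where chi-square over its degrees of freedom was 137, 31.4 and 15.3), and the viral entry (0.00342% to 4.11% of reads) was left out.

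edgeR 4.0.16 (filterByExpr, TMM, quasi-likelihood test, Benjamini-Hochberg adjustment over all genes) in R 4.3.3 compared the groups week by week. CPM were scaled by TMM over all biopsies. limma 3.58.1 and DESeq2 1.42.0 were alternatives. Members and lists were chosen with earlier results of these data known. All 33 members were counted. Named with values were 11 fixed members, up to 6 called at most treatment weeks, 4 with the smallest p over weeks in placebo, and, per pathway role, the 3 largest log2 values called at week 0 or 15. One further gene is not reported here. Weeks follow the study's numbering, 1 below most label numbers.

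Biopsies of 1 animal deviated together (median correlation 0.309 over 450 pairs, against -0.0239 over 4409 pairs of different animals), so the animal was used as a replicate block in alternatives. On simulated counts edgeR recovered 173 of 200 genes changed 2-fold at week 15, with 6 others called. It recovered 139 at week 19 (8 others called) and 139 for the effect at week 15 minus weeks 0 and 3 (13 others called). The simulated biopsies were drawn independently, so the recovery leaves out the shared deviation of an animal. Precision from depth covers counting error only.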

Additional observations from a re-analysis of the deposited data

Results flagged for a closer look

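Values far from the rest of their group were looked for in the 16 named members, in 160 groups of 4 to 10 biopsies, and 24 were found. Chance flags about 1 in 20 groups. In wIFN-α livers the highest value stood apart for PPARA at week 3 (145 CPM in F1013), PPARGC1A at week 3 (45.6 CPM in M1007), week 7 (57.9 CPM in F1022) and week 15 (62 CPM in F1020), and BDH1 at week 3 (193 CPM in F1013). It did so too for CPT1A at week 3 (638 CPM) and week 7 (416 CPM) in M1007, at week 15 in F1013 (167 CPM) and at week 23 in F1018 (143 CPM). For FGF21 it was M1007 at week 3 (114 CPM) and week 7 (36.8 CPM) and M1012 at week 19 (7.8 CPM). For PDK4 it was M1012 at week 3 (599 CPM) and F1022 at week 7 (427 CPM) and week 19 (590 CPM). The lowest value stood apart for ACADL at week 3 (60.3 CPM in F1014).

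In placebo livers the highest value stood apart for CD36 at week 15 (1864 CPM in M1011), CPT1A at week 19 (320 CPM in M1008), HADHB at week 15 (241 CPM in M1005), and HADHB and HADHA at week 23 (340 and 231 CPM in M1008). The lowest stood apart for FGF21 at week 19 (0.243 CPM in F1016), ACOX2 at week 11 (217 CPM in F1015) and HADHA at week 11 (85.5 CPM in F1021). M1007 and M1008 each recur in several genes of the pathway.

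Biopsies outside the comparisons held values above every placebo biopsy with under 5% muscle reads. The last biopsy of wIFN-α animal M1006, labelled week 3 and left out because its place in the numbering used here is uncertain, had FGF21 at 191 CPM, against at most 124 CPM. The biopsies taken at death from wIFN-α animals F1020 and F1023 had ANGPTL4 at 426 and 476 CPM, against at most 289 CPM. That of F1023 also had CD36 at 4474 CPM, against at most 4254 CPM, and PPARGC1A at 49 CPM, against at most 48 CPM.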

How the results depend on the processing

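Counts were recomputed under alternatives of normalization, filter, tool and runs, and, where planned, covariates, left-out animals and the replicate block. Of the values recomputed for single named members 658 stayed on their side of the threshold, 46 lost a call, 24 gained one and 1 changed sign: PPARA in placebo, weeks 7 to 15 against weeks -3 to 3, with week -3 left out (log2 difference 0.0553). With the adjusted p alone the counts became 2 (week 3), 13 (week 7), 10 (week 15), 21 (placebo, weeks 7 to 15), 5 (placebo, weeks 19 and 23) and 16 (placebo, week 0 against week -3). With a fold above 2 they became 1 (weeks 0, 11 and 15) and 2 (week 7). Week 3 had 1 call without the muscle-rich biopsies and 1 with all weeks in 1 fit. Week 15 had 2 calls with M1004 included. The paired fits with the animal as a replicate block gave 2 calls at week 11, 8 in the comparison of week 15 with weeks 0 and 3 (6 also without the muscle-rich biopsies), 1 in that of week 3 with week 0, and 1 in placebo at weeks 19 and 23. Members passing by the adjusted p went under the block from 6 to 3, 2 to 1, 13 to 4 and 10 to 6 at weeks 0, 3, 7 and 15. With all weeks in 1 fit and no block, 6, 4, 4, 4 and 9 passed at weeks 0, 3, 7, 11 and 15. The week 7 drop from 13 to 4 was thus also seen without the block. With the lane number as a covariate 0 passed at week 3 and 8 at week 7, and with M1004 included 1 passed at week 3. The other counts of calls stayed within 1.5 times.

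Refits that each dropped 1 animal of the wIFN-α group (at week 15 also placebo M1008, at week 19 also each placebo animal) gave 3 to 4 calls at weeks 0 and 11, 0 to 1 at week 3, 3 to 5 at week 7, 3 to 7 at week 15, 0 at weeks 19 and 23, 0 in both comparisons of effects, and, leaving out placebo animals, 2 to 3 in placebo at weeks 19 and 23. Without M1008, whose runs of week 15 differed, there were 6 calls at week 15. The count of 7 came without wIFN-α animal F1018, and the cause was not tested. Group sizes of 5 to 12 biopsies limit the precision, and FGF21, with medians of 1.18 to 2.53 CPM in placebo at weeks 7 to 15, rests on few reads.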

Other observations

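Values at death differed between animals. In the biopsy of wIFN-α animal F1020 at death, EHHADH was 297 CPM, ACADM 64.4 CPM and CPT1A 421 CPM, and in that of F1023 they were 329, 57.3 and 183 CPM. In that of wIFN-α animal M1007 they were 920, 155 and 116 CPM. Placebo animal F1024, found dead, had 1750, 308 and 66.8 CPM. In the 2 placebo biopsies of week 17, taken at euthanasia, EHHADH was 1598 and 1497 CPM and ACOX2 527 and 762 CPM. No comparison was made among these biopsies.

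In M1004, the wIFN-α animal left out of the comparisons, PPARA went from 260 CPM at week -3 to 72.4, 71, 83.2, 86 and 77.4 CPM at weeks 0, 3, 7, 11 and 15 and to 159 CPM at week 19. ACOX2 went from 664 CPM to 227, 357, 235, 270 and 290 CPM and to 626 CPM. EHHADH did not go the same way, with 2247 CPM at week -3 and 2198, 2140, 2282, 2764 and 2048 CPM at weeks 0 to 15.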
